A study of Mus musculus with 23 samples.

Results

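The smooth muscle contractile genes described here were 10 genes, *Acta2*, *Actg2*, *Myh11*, *Tagln*, *Des*, *Cnn1*, *Smtn*, *Lmod1*, *Synpo2* and *Mylk*, chosen by their symbols from 55449 gene identifiers in a table of colon RNA-seq counts. The 10 genes, and the lists of other genes used below, were chosen with earlier results of these data known. All 10 were found in the table, and all 10 passed the filter on low counts in every comparison. The RNA came from the colon of male C57BL/6 mice in which 1 floxed allele of the tumor suppressor *Apc* was deleted by a Cre recombinase driven by the *CDX2* promoter (*Cdx2Apc* f/w), an epithelial deletion that leads to colon tumors. All mice were 6 to 8 weeks old at the start and ate a 60% high-fat diet (HFD). Before colonization they drank water with neomycin, streptomycin and bacitracin for 3 days. Bacteria were then given by gavage, every 3 days by the methods and 2 times a week by the labels. The mice were colonized with *Bacteroides fragilis* (BF) 638R carrying an empty vector (BSHlow) or with the same strain carrying the bile salt hydrolase (*bsh*) gene of the *B. fragilis* type strain (BSHhigh). Every group thus shared the deletion, the diet, the antibiotics, the gavage and the host strain of bacteria. After 12 weeks there were 4 BSHlow and 4 BSHhigh libraries of non-tumor tissue, 4 of BSHlow tumors and 3 of BSHhigh tumors, and after 2 weeks 4 libraries per strain of colon labelled normal. No group lacked the deletion, so no comparison checked it. The BSHhigh tumors are called replicates a, b and c, because their columns show the group but not the sample. The study calls the samples independent and gives their sizes as pooled, without saying how many mice a library holds. The sources used here also do not say whether a tumor and a non-tumor library with the same number came from 1 mouse. Nor do they say how deep the colon wall was cut, or whether the muscle layer was kept.

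Smooth muscle shortens when myosin II filaments pull on actin filaments. In the colon wall it forms the muscularis mucosae below the epithelium, the circular and longitudinal layers of the muscularis propria, and the walls of vessels. The force generators among the 10 genes are *Myh11*, the myosin heavy chain of smooth muscle, with *Acta2* and *Actg2*, the vascular and the enteric smooth muscle actins. *Mylk* encodes the kinase that starts contraction by phosphorylating the myosin light chain when calcium and calmodulin bind it. The actin-binding proteins are encoded by *Cnn1* (calponin, which slows the myosin ATPase), *Tagln* (transgelin), *Smtn* (smoothelin) and *Lmod1* (leiomodin, which nucleates actin filaments). *Des* encodes desmin, the intermediate filament of muscle, and *Synpo2* encodes myopodin, which bundles actin at dense bodies and Z-discs. Many genes of this kind are regulated by serum response factor with its cofactor myocardin through a sequence called the CArG box. *Acta2* is also known from myofibroblasts and pericytes, and *Mylk* has non-muscle isoforms in many cell types.

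Both CArG boxes found before the start of *Acta2* are shown, since *Acta2* was the 1 gene of those searched with a match under the rule given below. Each is a site of 30 bases on GRCm38.p6, from the RefSeq promoter table, written 5′ to 3′ on the minus strand, which is the strand of the gene. Capitals mark the CArG box, which differs from the consensus at 1 base of its A and T core.
*Acta2* upper element, chr19:34255438-34255467: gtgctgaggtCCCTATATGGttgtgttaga
*Acta2* lower element, chr19:34255388-34255417: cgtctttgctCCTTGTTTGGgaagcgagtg
A match kept CC and GG at its ends, with up to 1 base other than A or T in its core of 6 bases. The CArG box was searched on both strands, which give the same matches since its ends are palindromic, and no other motif was searched. Both sites lie inside the first, untranslated exon of *Acta2* in GENCODE M21, whose start is farther upstream. The table held 7 of the 10 genes, and *Actg2*, *Myh11* and *Tagln* were not among them. In the 250 bases before the RefSeq start, *Acta2* had 2 such elements, beginning 84 and 34 bases before it. The windows of *Cnn1*, *Des*, *Lmod1*, *Mylk*, *Smtn* and *Synpo2* held none of this kind. Sites with the mismatch in the CC or GG ends, which the window of *Lmod1* does hold, were not counted. The windows of *Mylk* and *Smtn* lie inside these genes in GENCODE M21, so the sequence before their farthest upstream starts was not searched. Those of *Cnn1* and *Lmod1* run past the annotated starts. Over 32851 promoters of the same length, 8.59% held at least 1 element with up to 1 mismatch in the core and 1.47% an exact one. In GENCODE M21, which uses GRCm38, *Cnn1* spans 22099216 to 22109630 on chromosome 9, *Acta2* 34241090 to 34255590 on chromosome 19 and *Smtn* 3517523 to 3540612 on chromosome 11. The annotated genes that overlap *Tagln*, *Des*, *Smtn*, *Lmod1* and *Mylk* lie on the opposite strand, while *Synpo2* has 3 overlapping genes of unsettled status on its own strand, so that its counts are less certain.

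The unit of level is CPM, a count relative to library size, with TMM factors over all 23 libraries, and differences between groups are log2 fold changes from the quasi-likelihood test of edgeR with standard errors. A gene was called when its p-value, adjusted by Benjamini-Hochberg over all genes tested, was under 0.05 and its absolute log2 fold change was over 1. The expected counts of a library summed to between 12401388 and 17903008, with a median of 15874872. The 10 genes took 0.1716% to 0.9828% of all counts in BSHlow non-tumor tissues and 0.3755% to 0.4628% in BSHhigh non-tumor tissues. In tumors they took 0.03596% to 0.04439% (BSHlow) and 0.0362% to 0.05496% (BSHhigh), and after 2 weeks 0.01597% to 0.02833% (BSHlow) and 0.0129% to 0.03104% (BSHhigh). These shares use no scaling between libraries, and their ranges in non-tumor tissues do not overlap those of tumors or of the 2-week colon. All 12 epithelial markers had counts in each group. *Lgr5*, a marker of colon stem cells, had 36.6 ± 19.5 CPM in BSHlow tumors (SD, n = 4) and 48.9 ± 10.7 in BSHhigh tumors (SD, n = 3), against 5.24 ± 1.84 and 6.45 ± 3.32 in the non-tumor tissues (SD, n = 4 each). Most epithelial markers called in BSHlow tumors were lower, 7 of 12 against 2 higher, among them *Slc26a3* (log2 fold change -11.36) and *Muc2* (-6.47), genes of absorptive and goblet cells. In BSHhigh tumors 2 were lower, these same 2 (-4.54 and -2.99), and 2 higher. In bulk tissue, fewer smooth muscle cells and less RNA per cell cannot be told apart.

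**Figure D1:**
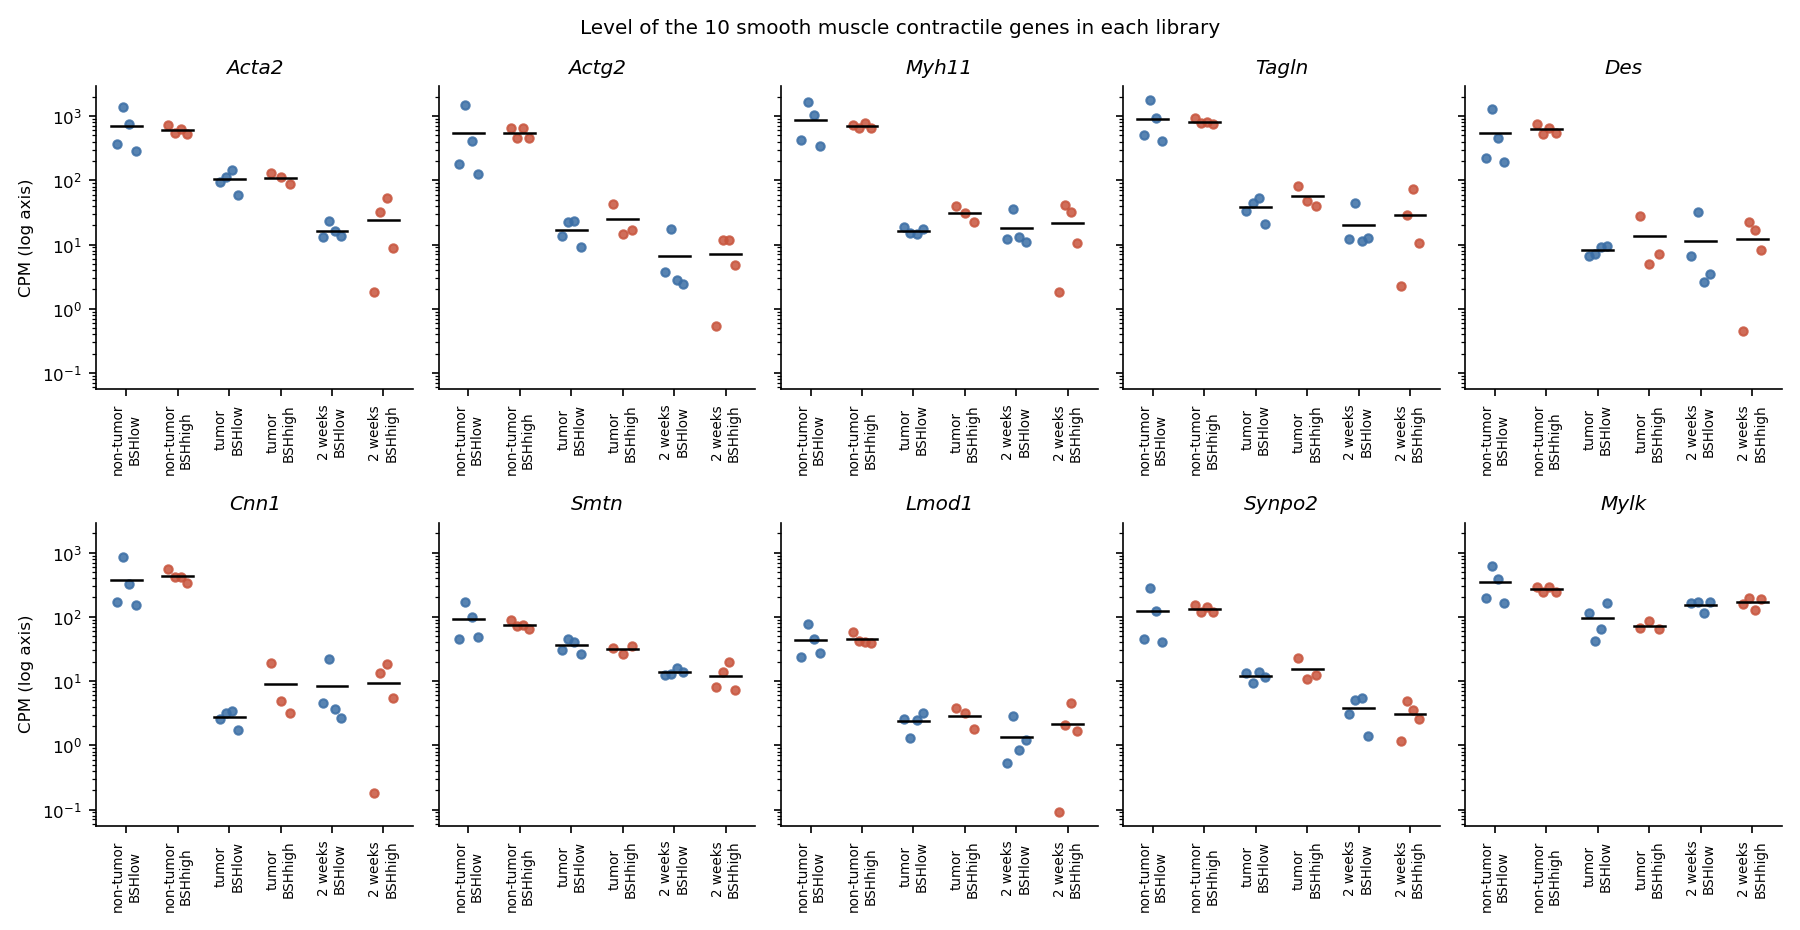
Level of each of the 10 genes in every library, as CPM on a log axis, with 1 panel per gene and 6 groups on the horizontal axis; blue points are BSHlow, red points BSHhigh, and black lines are group means. The non-tumor libraries stand above the tumors in every panel with the exception of 1 BSHlow pair for *Mylk*, and the 2-week libraries stand low in every panel but that of *Mylk*.

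In non-tumor tissues after 12 weeks the 10 genes were high and moved together from library to library. Per kilobase of the longest coding transcript, the order of the mean levels in BSHhigh was *Tagln* (512 CPM per kilobase), *Actg2* (415), *Acta2* (301), *Des* (205), *Cnn1* (181), *Myh11* (107), *Mylk* (34.2), *Smtn* (22.3), *Synpo2* (14.6) and *Lmod1* (11.3). BSHlow had the same first 3 genes, with *Tagln* at 572, *Actg2* at 409 and *Acta2* at 341 CPM per kilobase. The 4 BSHhigh libraries were alike, with a coefficient of variation of 9.08% to 21.1% for each gene. The 4 BSHlow libraries were not, and their coefficient of variation was 55.3% to 115%. Replicate 2 of BSHlow was the highest of all 23 libraries for each of the 10 genes, with 1464 CPM of *Actg2* against 177, 414 and 125 CPM in replicates 1, 3 and 4. Across the 8 non-tumor libraries, the log2 CPM of the 45 pairs of genes had a median Pearson r of 0.952, and the lowest was 0.841 (*Cnn1* with *Mylk*). These libraries mix the BSH groups, and genes of 1 library share its depth and scaling.

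Tumors against non-tumor tissues asks what the contractile program looks like once a tumor has formed. All 10 genes were lower in tumors in both BSH groups and all 10 were called, where 17.6% of all genes tested were called lower in BSHlow and 15% in BSHhigh. As the genes were chosen with earlier results known, these shares stand beside the counts as a description, and the set was not tested. The fall was between 2.58-fold (*Smtn*) and 137-fold (*Cnn1*) in BSHlow, and between 2.43-fold (*Smtn*) and 48.2-fold (*Cnn1*) in BSHhigh. The median log2 fold change of the 10 genes was -4.40 in BSHlow and -3.90 in BSHhigh, beside 0.05 and 0.04 over all genes tested.

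The myosin heavy chain gene *Myh11* had 422, 1687, 1043 and 344 CPM in BSHlow non-tumor tissues and 18.6, 15.2, 14.4 and 17.2 CPM in BSHlow tumors. In BSHhigh it had 715, 645, 788 and 652 CPM in non-tumor tissues and 39.4, 30.5 and 22.3 CPM in tumors. Every tumor lay far below every non-tumor library, with no overlap in either BSH group. *Myh11* fell by 5.75 ± 0.55 on the log2 scale in BSHlow (adjusted p = 2.91e-05 from edgeR) and fell by 4.52 ± 0.22 in BSHhigh (adjusted p = 1.08e-05).

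*Actg2*, the enteric actin, had 177, 1464, 414 and 125 CPM in BSHlow non-tumor tissues against 13.5, 22.3, 23.6 and 9.14 CPM in the tumors. In BSHhigh the values were 652, 460.0, 650.1 and 448 CPM in non-tumor tissues and 42.2, 14.4 and 17.1 CPM in tumors. The groups did not overlap, and *Actg2* fell by 5.0 ± 0.83 on the log2 scale in BSHlow (adjusted p = 0.000752 from edgeR) and fell by 4.50 ± 0.43 in BSHhigh (adjusted p = 0.0001). *Acta2*, the vascular actin, kept more of its level. It had 374, 1367, 751 and 282 CPM in BSHlow non-tumor tissues and 94.7, 112, 147 and 58.4 CPM in BSHlow tumors. In BSHhigh it had 735, 542, 639.5 and 532 CPM against 132, 112 and 87.6 CPM. These groups did not overlap either, and *Acta2* fell by 2.76 ± 0.50 in BSHlow (adjusted p = 0.00123 from edgeR) and fell by 2.48 ± 0.19 in BSHhigh (adjusted p = 3.98e-05).

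Of the actin-binding genes, *Cnn1* fell the most. It had 172, 854, 319 and 155 CPM in BSHlow non-tumor tissues and 2.60, 3.23, 3.39 and 1.76 CPM in BSHlow tumors. In BSHhigh it had 558, 410.1, 419 and 340.3 CPM in non-tumor tissues and 19.0, 4.96 and 3.20 CPM in tumors, of which replicate a was the highest. *Cnn1* fell by 7.10 ± 0.67 in BSHlow (adjusted p = 2.70e-05 from edgeR) and fell by 5.59 ± 0.65 in BSHhigh (adjusted p = 0.000234). *Tagln* had 415 to 1794 CPM in BSHlow non-tumor tissues and 20.7 to 53.6 CPM in the tumors, and 761 to 926 CPM against 39.9 to 83.0 CPM in BSHhigh. It fell by 4.61 ± 0.53 (adjusted p = 8.63e-05 from edgeR) and fell by 3.85 ± 0.27 (adjusted p = 3.51e-05). *Lmod1*, at a far lower level, had 23.7 to 76.2 CPM against 1.28 to 3.23 CPM in BSHlow and 39.3 to 57.4 CPM against 1.81 to 3.78 CPM in BSHhigh, and fell by 4.18 ± 0.44 (adjusted p = 5.13e-05 from edgeR) and fell by 3.95 ± 0.26 (adjusted p = 2.51e-05). None of these ranges overlapped between tumor and non-tumor tissues. *Smtn* changed least. It had 45.5, 172, 98.3 and 49.1 CPM in BSHlow non-tumor tissues and 30.8, 45.3, 40.9 and 26.1 CPM in the tumors, so that the groups almost met. In BSHhigh it had 65.8 to 89.5 CPM against 26 to 35.2 CPM, with a clear gap. *Smtn* fell by 1.37 ± 0.41 in BSHlow (adjusted p = 0.016 from edgeR) and fell by 1.28 ± 0.14 in BSHhigh (adjusted p = 0.000171). Without BSHlow non-tumor replicate 2 its log2 fold change was -0.88 (adjusted p = 0.0304), short of the fold limit.

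Desmin followed calponin. *Des* had 220.2, 1308, 464 and 192 CPM in BSHlow non-tumor tissues and 6.58, 7.08, 9.30 and 9.48 CPM in BSHlow tumors. In BSHhigh it had 756, 529, 646 and 552 CPM against 28.1, 5.05 and 7.25 CPM. Tumor replicate a again stood above b and c, and still far below the non-tumor libraries. *Des* fell by 6.08 ± 0.69 (adjusted p = 7.77e-05 from edgeR) in BSHlow and by 5.54 ± 0.65 (adjusted p = 0.000235) in BSHhigh. *Synpo2* had 41.0 to 282 CPM in BSHlow non-tumor tissues and 9.29 to 13.8 CPM in tumors, and 118 to 155 CPM against 10.6 to 22.7 CPM in BSHhigh, and fell by 3.37 ± 0.60 (adjusted p = 0.00115 from edgeR) and fell by 3.15 ± 0.28 (adjusted p = 7.07e-05). For *Mylk*, the kinase, the BSHlow groups met: non-tumor tissues had 196, 626, 387 and 161.5 CPM and tumors 114, 42.1, 65.2 and 161.7 CPM. In BSHhigh the groups stood apart, at 291, 243, 289 and 248 CPM against 65.8, 86.3 and 64.1 CPM. *Mylk* fell by 1.84 ± 0.53 in BSHlow (adjusted p = 0.0135 from edgeR) and fell by 1.90 ± 0.14 in BSHhigh (adjusted p = 3.88e-05). With a block for the replicate number *Mylk* was at -1.81 in BSHlow (adjusted p = 0.0689 from edgeR) and was not called. In all, the libraries of 9 of the 10 genes did not overlap between tumor and non-tumor tissues in BSHlow, and those of all 10 in BSHhigh. How many of all genes tested stood apart in this way was not counted.

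Single libraries moved the size of the difference more than its direction. Without BSHlow non-tumor replicate 2, the log2 fold change in BSHlow was -3.83 for *Actg2*, -5.19 for *Des*, -6.32 for *Cnn1* and -2.57 for *Synpo2*. Without BSHhigh tumor replicate a, it was -5.14 for *Actg2*, -6.66 for *Des* and -6.73 for *Cnn1* in BSHhigh.

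**Figure D2:**
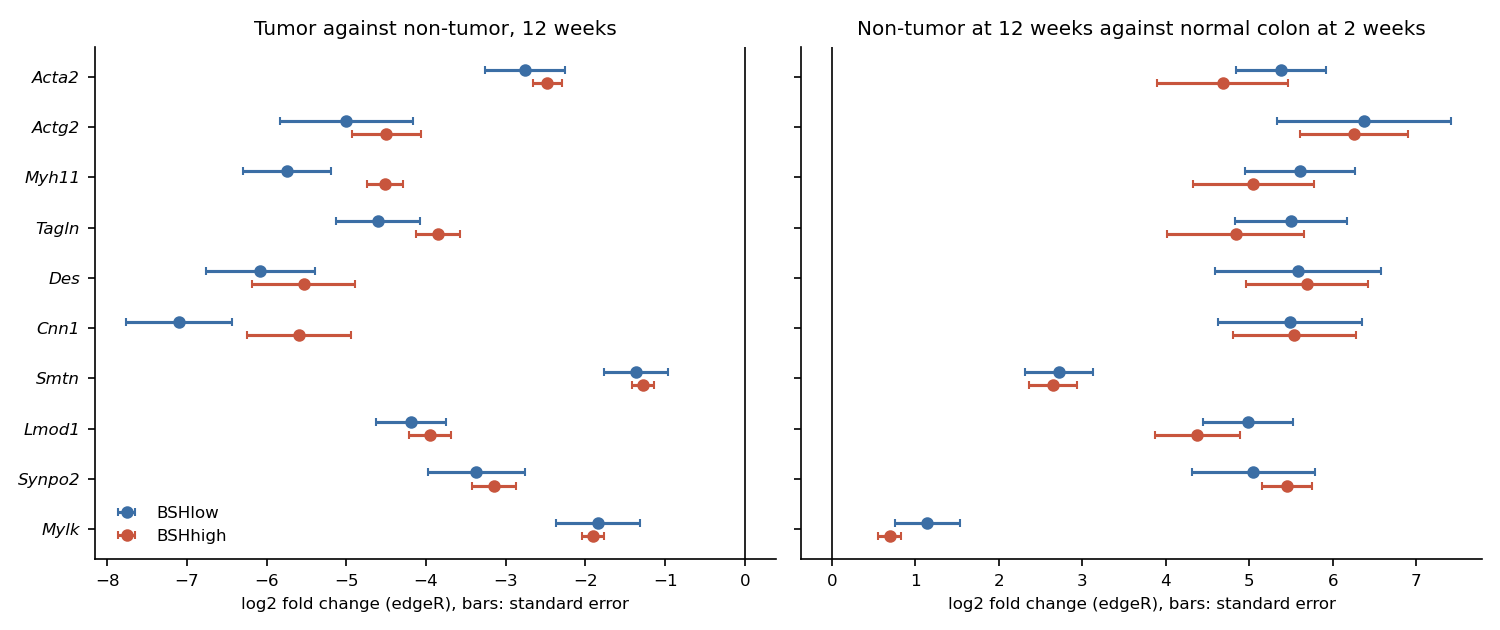
Log2 fold changes of the 10 genes from edgeR, with standard errors as bars, for tumor against non-tumor tissues (left) and non-tumor tissues at 12 weeks against normal colon at 2 weeks (right); blue is BSHlow and red BSHhigh. On the left *Cnn1* and *Des* lie farthest from 0 and *Smtn* and *Mylk* nearest, and on the right *Mylk* is the gene nearest to 0, at 1.14 and 0.69.

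The 10 genes did not fall by the same factor. To see this without any scaling between libraries, the log2 level of each gene was set against the mean of the 10 genes in the same library. Relative to that mean, tumors minus non-tumor tissues, *Smtn* was higher by 2.62 on the log2 scale, *Mylk* by 1.98, *Acta2* by 1.33 and *Synpo2* by 0.78, while *Myh11* was lower (-1.15), as were *Des* (-1.92) and *Cnn1* (-2.49). Each of these 7 differences had p = 0.000408 in an exact two-sided permutation test of the tissue labels within the BSH groups, the smallest p that its 2450 splits can give. *Tagln* (-0.33, exact permutation p = 0.00571) and *Actg2* (-0.68, exact permutation p = 0.00939) were lower by less. *Lmod1* followed the mean, at -0.14 (exact permutation p = 0.463). These were 10 tests, 1 per gene, and since each ratio contains the other genes they are not independent. The direction of each was the same in the BSH groups: *Cnn1* stood at -2.80 in BSHlow and -2.18 in BSHhigh, and *Smtn* at 2.74 and 2.50.

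**Figure D3:**
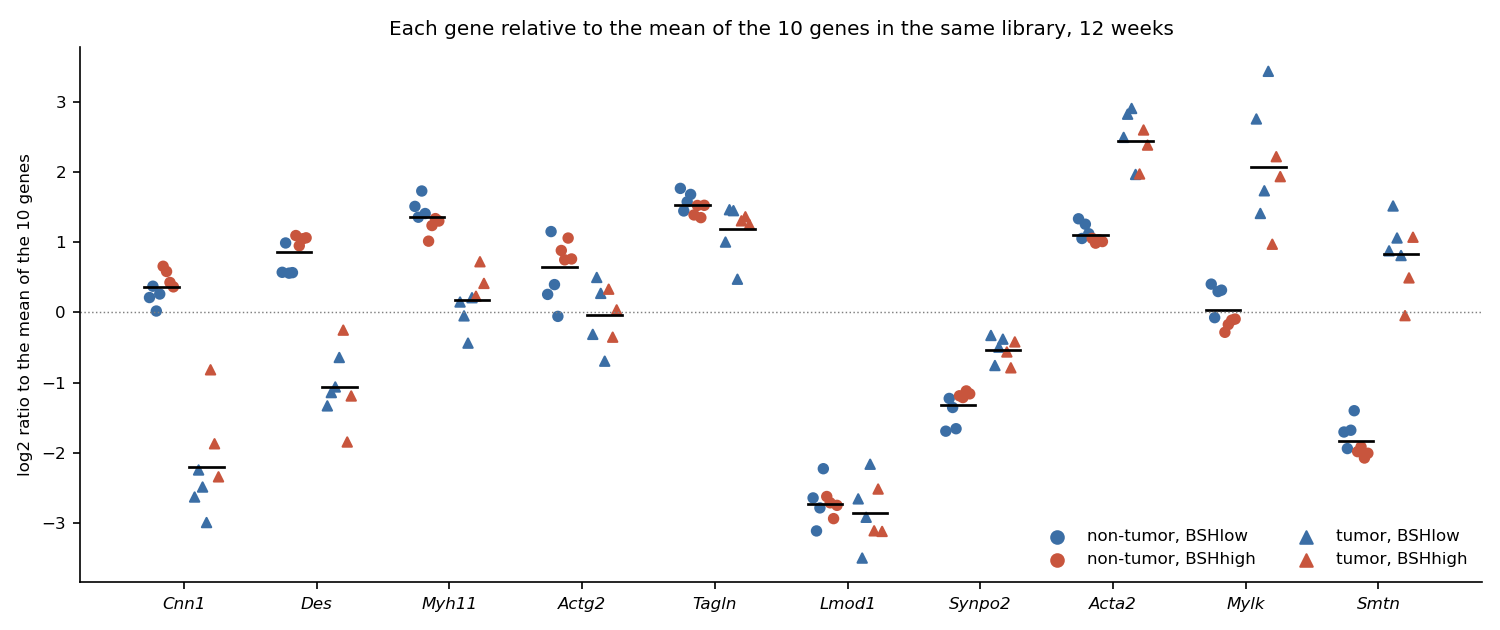
Log2 ratio of each gene to the mean of the 10 genes in the same library for the 15 libraries of 12 weeks, with circles for non-tumor and triangles for tumor libraries, blue for BSHlow and red for BSHhigh, and black lines for means over both BSH groups. Genes are ordered from *Cnn1*, whose tumors lie lowest beside their non-tumor tissues, to *Smtn*, whose tumors lie highest, and the points of *Lmod1* overlap.

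The makeup of the contractile counts differed in the same way. *Cnn1* gave 6.96% to 11.3% of the counts of the 10 genes in non-tumor libraries and 0.551% to 4.05% in tumors, and *Des* 10.1% to 15.3% against 1.48% to 6.01%. *Acta2* gave 14.1% to 17.1% in non-tumor libraries and 18.3% to 39.3% in tumors. *Mylk* went from 5.89% to 9.01% of these counts in non-tumor libraries to 13.9% to 50.7% in tumors and 35.5% to 90.6% after 2 weeks. These are shares within a library, and a gene's share rises when the others fall.

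**Figure D4:**
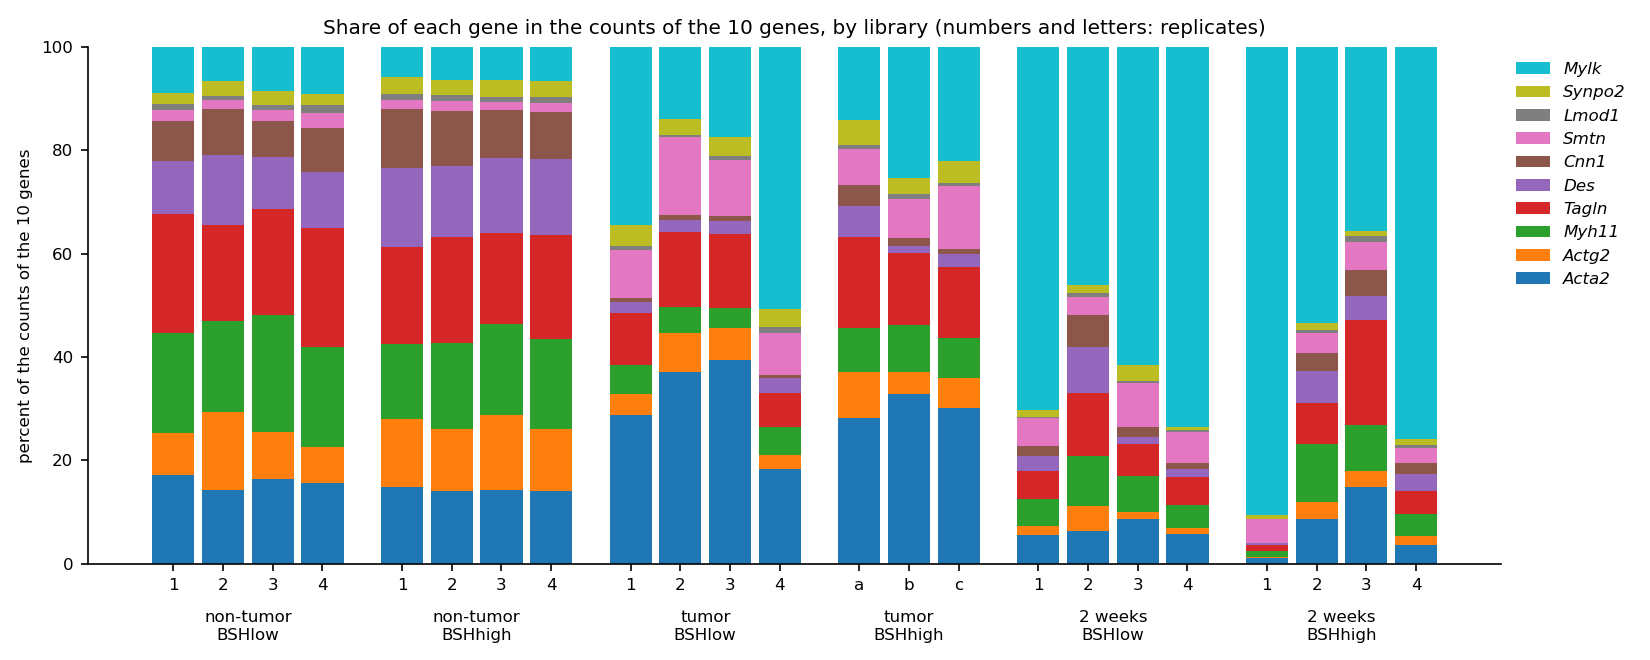
Percent of the counts of the 10 genes that each gene took, as stacked bars for each of the 23 libraries, grouped by tissue and BSH strain. *Mylk*, the top segment, takes 5.89% to 9.01% in the 8 non-tumor libraries and 35.5% to 90.6% in the 8 libraries of 2 weeks.

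Within tumors the correlations between the genes were lower than in non-tumor tissues, with and without *Mylk* and *Smtn*, where the median over the 8 non-tumor libraries was 0.953 without these genes. Over the 7 tumors the 45 pairs had a median Pearson r of 0.470, or 0.604 without *Mylk* and *Smtn*, with the highest value for *Actg2* and *Tagln* (0.935) and the lowest for *Smtn* and *Mylk* (-0.833). In the 8 libraries of 2 weeks the median was 0.789, or 0.919 without these genes, and *Smtn* and *Mylk* again had the lowest value (-0.560). These are descriptions over few libraries of both BSH groups, and levels near the low end carry more counting error. The spread was also unequal: the mean log2 level of the 10 genes ran from 7.02 to 9.37 over the non-tumor libraries. Over the tumors it ran from 3.91 to 5.07, and r depends on this spread. Against the mean of the 10 genes, *Mylk* had r = 0.942 in the 8 non-tumor libraries, 0.03 in the 8 libraries of 2 weeks and -0.26 in the 7 tumors, while *Cnn1* had 0.971, 0.994 and 0.962.

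Whether high BSH activity alters the contractile genes was asked in tumors, in non-tumor tissues and after 2 weeks. In tumors none of the 10 genes was called, where 0.463% of all genes tested were called higher in BSHhigh and 0.0131% lower. At an unadjusted p under 0.05 from edgeR there were 2 of the 10 genes, *Myh11* and *Cnn1*, beside 1946 of the 15325 genes tested. DESeq2, the likelihood-ratio test of edgeR and limma-voom each called 0 of the 10. The largest differences were those of *Cnn1*, with a log2 fold change of 1.71 ± 0.58 (adjusted p = 0.269 from edgeR), and *Myh11*, with 0.89 ± 0.20 (adjusted p = 0.0901). DESeq2 gave *Myh11* the same log2 fold change, 0.89, with an adjusted p of 0.0036, so that there it missed the fold limit only. The likelihood-ratio test did the same (0.89, adjusted p = 0.00479), limma-voom gave 0.86 (adjusted p = 0.148), and over all alternatives its adjusted p was 0.0036 to 0.570. *Myh11* was the 1 gene of the 10 whose tumors did not overlap, at 22.3 to 39.4 CPM in BSHhigh and 14.4 to 18.6 CPM in BSHlow. The share of all genes without overlap was not counted, so this is a description only. Without BSHhigh tumor replicate c *Myh11* was called, with a log2 fold change of 1.08 (adjusted p = 0.0342 from edgeR). The difference of *Cnn1* rested on replicate a, and was 0.56 without it. The other 8 genes lay between -0.43 ± 0.42 (*Mylk*) and 0.72 ± 0.54 (*Des*), with *Acta2* at 0.09 ± 0.28, *Smtn* at -0.20 ± 0.20, *Lmod1* at 0.26 ± 0.39, *Synpo2* at 0.34 ± 0.28, *Actg2* at 0.52 ± 0.44 and *Tagln* at 0.58 ± 0.34, and adjusted p-values from 0.548 to 0.918.

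BSHhigh tumor replicate a was the highest of the 7 tumors for *Cnn1*, *Des*, *Actg2*, *Tagln*, *Synpo2*, *Lmod1* and *Myh11*, but not for *Acta2*, *Smtn* or *Mylk*. The fold changes of *Acta2*, *Actg2*, *Des* and *Synpo2* fell below 0 without it. In non-tumor tissues 0 of the 10 genes were called at either the adjusted or the unadjusted threshold, as by DESeq2, the likelihood-ratio test and limma-voom, where edgeR called 0% of all genes in either direction, with 1377 of 14933 at an unadjusted p under 0.05, limma-voom called 0 genes, DESeq2 59 and the likelihood-ratio test 40. The log2 fold changes of BSHhigh against BSHlow there were between -0.36 ± 0.38 (*Mylk*) and 0.20 ± 0.50 (*Cnn1*), and the libraries of all 10 genes overlapped. After 2 weeks 0 of 10 were called by any of the tests and 0 had an unadjusted p under 0.05 from edgeR, beside 935 of the 13752 genes tested. Over all genes edgeR called 0.00727% (1 gene) higher and 0% lower, limma-voom 1 gene, DESeq2 27 and the likelihood-ratio test 31. With 1 library left out edgeR called 0 to 37 genes. The values of the 10 genes were between -0.30 ± 0.48 (*Synpo2*) and 0.64 ± 0.77 (*Lmod1*), again with overlap for all 10. The standard errors of up to 0.92 show how large a difference of these genes could pass unseen.

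The difference of these differences was tested too. For the interaction of tissue and BSH, which asks whether the tumor difference depends on the strain, 0 of the 10 genes were called by edgeR. Over all genes 0.972% were called higher and 0.00608% lower. Of the 10 genes 1, *Myh11*, had an unadjusted p under 0.05 from edgeR, beside 1580 of the 16454 genes tested. The interaction terms were between -0.06 ± 0.61 (*Mylk*) and 1.5 ± 0.83 (*Cnn1*, adjusted p = 0.634 from edgeR). That of *Cnn1* was between 0.39, without BSHhigh tumor replicate a, and 1.94, without replicate c, and it was 0.72 without BSHlow non-tumor replicate 2 and 0.74 with limma-voom. For the interaction of time and BSH 0 of the 10 genes were called and 0 had an unadjusted p under 0.05, where edgeR called 0% of all genes in either direction, with 1135 of 15532 at an unadjusted p under 0.05, limma-voom called 0 genes and DESeq2 and the likelihood-ratio test 26 each. These terms were between -0.71 ± 0.91 (*Acta2*) and 0.40 ± 0.82 (*Synpo2*), and that of *Synpo2* was between 0.11 and 1.21 with 1 library left out, the highest without BSHlow non-tumor replicate 2. DESeq2, the likelihood-ratio test and limma-voom also called 0 of the 10 genes in both interactions.

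The colon labelled normal after 2 weeks held much less contractile RNA than the non-tumor tissues of 12 weeks. All 10 genes were called higher at 12 weeks in BSHlow, where 15.1% of all genes were called higher and 7.59% lower, and 9 of 10 in BSHhigh, where the shares were 15.9% and 7.34%. Here too the genes were chosen with earlier results known, and the set was not tested. The median log2 fold change of the 10 genes was 5.44 in BSHlow and 4.94 in BSHhigh, beside -0.02 and 0.02 over all genes. Time on diet and strain, age and the tissue label change together here, and with the depth of the cut through the wall not given they cannot be told apart.

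*Des* had 6.67, 32.5, 2.65 and 3.45 CPM after 2 weeks in BSHlow and 0.454, 22.4, 17.1 and 8.34 CPM in BSHhigh, and all 8 libraries lay below the lowest non-tumor library of 12 weeks, at 192 CPM. The difference was 5.58 ± 1.0 on the log2 scale in BSHlow (adjusted p = 0.00184 from edgeR) and 5.69 ± 0.73 in BSHhigh (adjusted p = 0.000257). *Myh11* had 12.2, 35.2, 13 and 10.8 CPM in BSHlow and 1.82, 40.6, 32.2 and 10.6 CPM in BSHhigh after 2 weeks. Its differences were 5.61 ± 0.66 (adjusted p = 0.000211 from edgeR) and 5.05 ± 0.72 (adjusted p = 0.000452). Replicate 1 of BSHhigh stood at the low end of all 23 libraries for 8 of the genes, with 20 counts of *Myh11*, 5 of *Des*, 2 of *Cnn1* and 1 of *Lmod1*, against 1732 of *Mylk*. *Actg2* (6.37 ± 1.04 and 6.25 ± 0.64), *Cnn1* (5.49 ± 0.86 and 5.54 ± 0.74), *Tagln* (5.50 ± 0.67 and 4.84 ± 0.82), *Acta2* (5.38 ± 0.54 and 4.68 ± 0.79), *Synpo2* (5.05 ± 0.73 and 5.45 ± 0.30) and *Lmod1* (4.98 ± 0.54 and 4.38 ± 0.51) showed differences of like size, in BSHlow and BSHhigh in that order. *Smtn* differed by less, at 2.72 ± 0.41 and 2.65 ± 0.28. For *Actg2*, *Des*, *Cnn1* and *Synpo2* in BSHlow the log2 fold change was 5.17, 4.67, 4.68 and 4.22 without non-tumor replicate 2. Without 2-week replicate 2 of BSHlow it was 7.49 for *Actg2*, 6.97 for *Des*, 6.66 for *Cnn1*, 6.21 for *Tagln* and 5.61 for *Lmod1*, and without 2-week replicate 3 of BSHhigh it was 5.43 for *Acta2*, 5.87 for *Tagln* and 5.07 for *Lmod1* in BSHhigh.

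*Mylk* was the gene whose level after 2 weeks came close to that of 12 weeks. It had 162, 167, 116 and 170.5 CPM in BSHlow and 157, 194, 129 and 189 CPM in BSHhigh after 2 weeks, against 161.5 to 626 CPM and 243 to 291 CPM in the non-tumor tissues. The ranges overlapped in BSHlow and did not in BSHhigh. Its log2 fold change was 1.14 ± 0.39 in BSHlow (adjusted p = 0.0376 from edgeR), and 0.69 ± 0.14 in BSHhigh (adjusted p = 0.00245), under the fold limit. The call in BSHlow was lost without either of non-tumor replicates 2 (0.67, adjusted p = 0.0945) and 3 (1.09, adjusted p = 0.0794), and without any 1 of the 4 libraries of 2 weeks (1.02 to 1.19, adjusted p = 0.0637 to 0.0890 from edgeR). The 2-week colon also differed from tumors in its order of levels: *Mylk* stood at 19.7 CPM per kilobase in BSHlow and 21.4 in BSHhigh and was the highest of the 10 genes, while *Acta2* led in tumors at 50.7 CPM per kilobase in BSHlow and 54.3 in BSHhigh.

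Placing the 6 groups in order for each gene, the non-tumor tissues were first and second for all 10 genes, and their ranges overlapped each other. The tumors came next for *Acta2*, *Smtn* and *Synpo2*, whose 2-week libraries did not reach the tumors. For *Myh11*, *Des*, *Tagln*, *Actg2*, *Lmod1* and *Cnn1* the tumor and 2-week groups that were neighbours in this order overlapped. For *Mylk* the order was non-tumor, 2 weeks and tumor, and the tumors of BSHlow, but not those of BSHhigh, reached the range of the 2-week libraries.

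The wider contractile apparatus fell in part. Of 20 other contractile and cytoskeletal genes of smooth muscle, 19 were tested, of which 10 were called lower in tumors in each BSH group, with 2 called higher in BSHlow and 1 in BSHhigh. Their median log2 fold change was -1.07 in BSHlow and -1.08 in BSHhigh. The largest falls in BSHlow were those of *Pgm5* (-5.74), *Pdlim3* (-4.67), *Synm*, an intermediate filament partner of desmin (-4.62), and *Fhl1* (-4.61), and in BSHhigh those of *Pgm5* (-4.83), *Synm* (-4.63), *Pdlim3* (-3.97) and *Tpm2*, a tropomyosin (-3.70). Of the 22 genes of signalling, ion channels and calcium handling, 12 were called lower and 0 higher in each BSH group, with medians of -1.56 and -1.10. *Kcnma1*, the pore of the large-conductance potassium channel, was at -4.75 in BSHlow and -3.24 in BSHhigh. *Chrm2*, a muscarinic receptor, was at -5.45 and -4.27, and *Ryr2*, a calcium release channel, at -6.11 and -4.34. *Pln*, the phospholamban gene that restrains the calcium pump, had 0 counts in all 4 BSHlow tumors against 3.75 ± 2.51 CPM in non-tumor tissues (SD, n = 4). It was at least 102-fold lower, from a floor of 3 counts over the group.

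Of 9 transcriptional regulators tested, 3 were called lower in each BSH group. *Myocd*, which encodes myocardin, was at -3.27 and -2.03, *Klf4*, which encodes a factor also strong in differentiated epithelium, at -3.92 and -2.85, and *Mef2c* at -1.40 and -1.69. *Heyl*, a Notch target of vascular mural cells, was called higher in BSHhigh (1.21). *Srf*, which encodes serum response factor and was picked out after its values were seen, was not called, at -0.05 and -0.16. *Mir143hg* was not among the genes of the table.

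Markers of other cells of the wall moved with the contractile genes. Enteric neuron and glia markers were called lower in tumors for 11 of 13 tested in each BSH group, with medians of -4.07 and -3.26 that do not change with the genes at 0 counts set to their bounds. *Vip*, the vasoactive intestinal peptide of enteric neurons, had 0 counts in all 4 BSHlow tumors and was at least 662-fold lower, and *Sox10* was also at 0 counts there (at least 34.8-fold lower). Of 5 genes listed for interstitial cells of Cajal, the pacemakers of gut muscle, 4 were called lower in each BSH group, with *Thbs4* at -9.47 and -3.37, *Etv1* at -2.60 and -2.07, *Kit* at -1.78 and -1.46 and *Ano1* at -1.63 and -1.32. The fifth, *Kitl*, encodes the ligand of *Kit* and is not a marker of these cells. It was called higher in BSHlow (1.07). *Thbs4* was the 1 gene of these lists, beside the epithelial *Slc26a3*, that was called higher in BSHhigh than in BSHlow tumors (5.82, adjusted p = 0.0290 from edgeR). With 1 library left out edgeR called 0 to 240 of all genes between these tumors, so neither call held in every such fit. The summed level of the 10 contractile genes was 1793 to 9629 CPM in BSHlow and 3757 to 4937 CPM in BSHhigh non-tumor tissues, against 302 to 374 and 291 to 468 CPM in tumors. That of the neuron and glia markers was 60.8 to 118 and 62.9 to 111 CPM in non-tumor tissues against 10.3 to 15.9 and 24.4 to 73.3 CPM in tumors.

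Stromal and vascular markers did not fall as a group. Of all genes tested, 16.1% were called higher in BSHlow tumors and 14.6% in BSHhigh tumors. Of 11 fibroblast genes, 2 were called higher and 2 lower in BSHlow tumors and 5 higher and 1 lower in BSHhigh tumors, with *Pdgfra* at 1.88 and 1.89 and *Lum* at -3.01 and -1.96. Of 7 genes of pericytes and vascular mural cells, 2 were called higher and 0 lower in each BSH group, *Pdgfrb* (1.96 and 2.05) and *Notch3* (2.01 and 1.74). Of 6 endothelial genes, 2 were called higher and 0 lower in each, *Cdh5* (2.25 and 2.29) and *Vwf* (1.29 and 1.49). The summed level of the mural cell genes was 127 to 271 CPM in BSHlow non-tumor tissues and 253 to 342 CPM in BSHlow tumors, and 152 to 275 CPM and 221 to 275 CPM in BSHhigh. Among 12 epithelial genes, 2 were called higher and 7 lower in BSHlow and 2 higher and 2 lower in BSHhigh, and their summed level was 12206 to 17774 CPM over the non-tumor and 4591 to 9817 CPM over the tumor libraries. Leukocyte genes were called higher in 1 and lower in 2 of 6 in BSHlow, and in 1 and 1 in BSHhigh. Skeletal muscle, adipocyte and mesothelial lists had 4, 2 and 1 genes that could be tested in BSHlow and 4, 2 and 3 in BSHhigh. In these, *Ckm* was called lower (-6.95 and -5.40), as was *Fabp4* (-1.66 and -2.13), *Mylpf* was called higher in BSHlow (1.63), *Msln* was called higher in BSHlow (2.82) and *Upk3b* (-5.42) and *Lrrn4* (-2.53) lower in BSHhigh. The part of these cell types in the fall of the contractile genes was not tested.

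**Figure D5:**
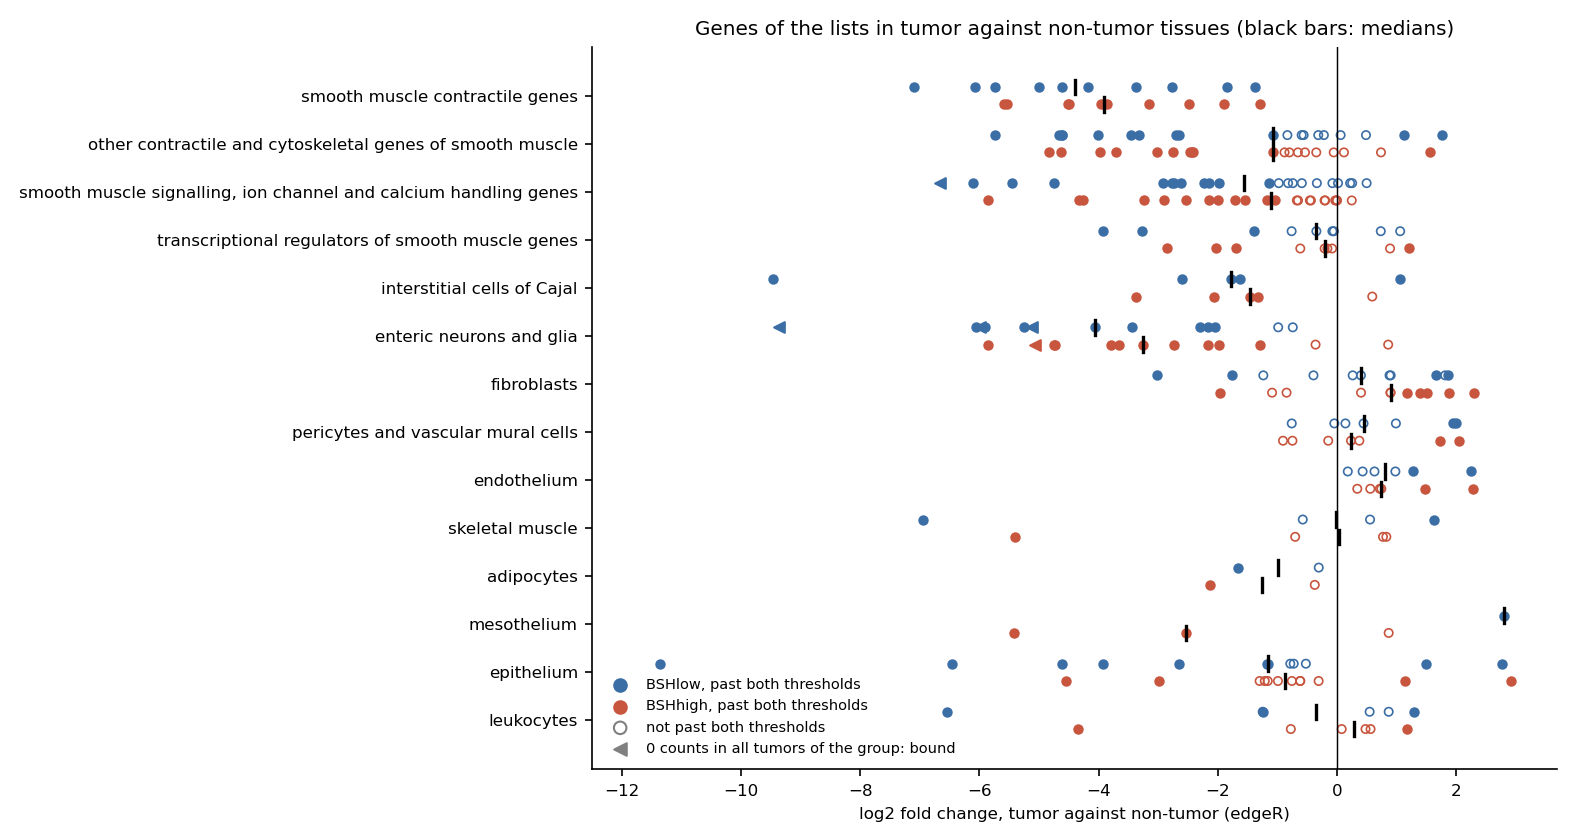
Log2 fold changes from edgeR, tumor against non-tumor tissues, for each tested gene of 14 lists (rows), with blue for BSHlow and red for BSHhigh, filled circles for genes past both thresholds, open circles for the others, left-pointing triangles for genes with 0 counts in all tumors of the group drawn at their bound, and black bars for medians. The contractile genes and the neuron and glia markers lie to the left, with medians of -4.40 and -4.07 in BSHlow, while the endothelial median lies at 0.81.

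The same lists were read for 12 weeks against 2 weeks. Here the other contractile genes were called higher in 16 of 19 (BSHlow) and 17 of 19 (BSHhigh), with *Synm* at 6.98 and 6.25, the signalling genes in 14 and 15 of 22, with *Kcnmb1* at 5.89 and 4.80, and the regulators in 4 of 9 in each, with *Myocd* at 4.66 and 4.62. In contrast to the tumor comparison, fibroblast genes rose with them, in 10 of 11 in each BSH group with *Dcn* at 3.93 and 3.45, and mural cell genes in 5 and 6 of 7, with *Abcc9* at 3.83 and 4.31. Endothelial genes were called higher in 4 and 6 of 6, neuron and glia markers in 12 of 14 and 12 of 13 with 1 lower in BSHlow, and genes listed for interstitial cells of Cajal in 3 of 5 in each. Leukocyte genes were called higher in 3 of 6 in each, with 1 lower in BSHhigh. Epithelial genes were called higher in 0 of 12 and lower in 5 and 3, with *Car1* at -5.18 and -6.07 and *Cdx2* at -4.63 and -3.78. Mesothelial genes were called higher in 1 of 1 and 3 of 3, adipocyte genes lower in 2 of 4 in BSHlow and higher in 1 of 2 in BSHhigh, and of the skeletal muscle genes 1 was higher and 2 were lower in BSHlow and 1 was higher in BSHhigh. The summed level of the epithelial genes was 31180 to 42939 CPM over the 2-week libraries, and the fibroblast genes summed to 72.2 to 331 CPM there against 411 to 3789 CPM over the non-tumor tissues of 12 weeks. The part of the makeup of the tissue in the difference of the contractile genes was not tested.

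Within the 8 non-tumor libraries, the mean log2 level of the 10 genes had a Pearson r of 0.98 with the summed level of the other contractile genes. It had 0.92 with skeletal muscle genes, 0.89 with signalling genes, 0.81 with fibroblasts and 0.79 with mural cells. The skeletal muscle genes were near the floor there, with sums of 6.78 to 33.3 CPM in BSHlow and 9.46 to 18.2 CPM in BSHhigh. Of these 10 genes, 2 passed the filter in non-tumor tissues. It had 0.22 with neurons and glia and 0.03 with the list for interstitial cells of Cajal, which includes *Kitl*. In the 7 tumors the value was 0.90 for neurons and glia, 0.80 for the regulators, 0.72 for epithelium and 0.14 for fibroblasts. It was 0.10 for the other contractile genes, -0.032 for the signalling genes and -0.067 for mural cells. The mean itself was 5.07 in BSHhigh tumor replicate a and 3.91 to 4.30 in the other tumors, so 1 library weighs heavily in these values. In non-tumor tissues it was 9.37 in BSHlow replicate 2 and 7.02 to 8.47 in the others, so that library weighs heavily there. These are descriptions over few libraries that share depth and scaling.

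Outside the 10 genes, those whose log2 CPM over all 23 libraries was most like their mean, among 14389 genes with a mean of at least 1 CPM, were *Tpm2* (Pearson r = 0.987), *Pdlim3* (0.986), *Pgm5* (0.981), *Myl9* (0.979), *Synm* (0.975), *Akap6* (0.958), *Sspn* (0.955), *Ppp1r12b* (0.952), *Mmp17* (0.948) and *Apbb1* (0.948). Over the 16 libraries without tumors r was between 0.948 (*Apbb1*) and 0.994 (*Myl9*). Within the 7 tumors r was 0.873 for *Pgm5*, 0.837 for *Sspn* and 0.787 for *Tpm2*, and it was 0.24 for *Synm*. By the same measure, of the 10 genes themselves *Tagln* was the most like the mean (0.993), which contains it, and *Mylk* the least (0.615).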

How the data were processed

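RNA-seq of mouse colon was available for 23 libraries in 6 groups of 3 or 4. The authors trimmed and aligned the reads to mm10 and deposited 1 table of RSEM expected counts per gene, not normalized; cutadapt, STAR, Picard and RSEM are named in the submitters' processing notes without versions. The labels name a total RNA stranded kit and the methods a stranded mRNA kit, and an mRNA kit and a total RNA kit can weigh transcripts differently. Of 55450 gene identifiers, 1 was left out because a cell held text. The expected counts were rounded to whole numbers (4.24% of values were not whole). The 3 BSHhigh tumor columns carry no sample name and were assigned to their group, not to a sample, through the 1996 rows at hand of a supplementary table of the study, which they matched within 0.051 counts. No 2 replicates agreed within sampling noise (chi-square per degree of freedom 16.6 to 126 over 33 pairs).

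Genes were filtered with filterByExpr, scaled with TMM and compared by quasi-likelihood F-tests (edgeR 4.0.16, R 4.3.3) on the libraries of each comparison. P-values were adjusted by Benjamini-Hochberg over all genes tested, and a call needed both an adjusted p under 0.05 and a log2 fold change beyond 1 in either direction. Standard errors are the log2 fold change divided by the square root of F. Levels are CPM with TMM over 23 libraries (prior count 2 for log2). Ratios to the mean of the 10 genes were tested with an exact permutation test. The alternatives were DESeq2 1.42.0, the edgeR likelihood-ratio test, limma-voom (limma 3.58.1), other scalings and filters, 1 fit of all 23 libraries, a block for the replicate number, and fits that omit 1 library in turn. Tests were checked on simulated data. Python 3.11.15, pandas 2.3.3, numpy 2.4.6, scipy 1.17.1 and matplotlib 3.10.9 were used. The 10 genes and all lists were chosen with earlier results of these data known. Genes of other lists were named when they were among the 4 largest absolute fold changes called, and those most like the 10 genes by Pearson r. The study calls the replicates independent samples and gives their sizes as pooled, without saying how many mice a library holds. The p-values measure the spread between libraries, which may not be the spread between mice.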

Additional observations from a re-analysis of the deposited data

Results flagged for a closer look

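In 55 sets of 4 libraries, 50 for the level of a gene in a group and 5 for the share of counts of the 10 genes in a group, the distance of the highest or lowest library from its nearest neighbour was set against the range of the set. It passed the 95% limit of Dixon's test in 7 sets, where chance gives about 1 in 20. Of these, 5 were high values of replicate 2 of the 2-week BSHlow colon, which had 17.3 CPM of *Actg2*, 35.2 CPM of *Myh11*, 43.9 CPM of *Tagln*, 32.5 CPM of *Des* and 22.3 CPM of *Cnn1*. The genes share this library, so these are not separate events. *Lmod1* was high in replicate 1 of the BSHhigh non-tumor tissues (57.4 CPM), and *Mylk* was low in replicate 3 of the 2-week BSHlow colon (115.6 CPM). What sets these libraries apart was not tested.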

How the results depend on the processing

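The number of the 10 genes called stayed within 1.5 times its value in every comparison and alternative run but 1: without BSHhigh tumor replicate c, 1 gene (*Myh11*) was called between BSHhigh and BSHlow tumors, and over all libraries left out in turn this count was 0 to 1. Under library size scaling, which moved the median of all genes to 0.38 and 0.35 in tumors against non-tumor tissues (BSHlow and BSHhigh) and to 0.22 and 0.30 in 12 against 2 weeks, the share of calls that were higher went from 47.8% to 64.2%, from 49.3% to 65.7% and, for 12 against 2 weeks in BSHhigh, from 68.5% to 79.2%; *Smtn* in BSHhigh tumors was then at -0.97, short of the fold limit. DESeq2 called 8 of 10 at 12 against 2 weeks in BSHhigh, where *Tagln* got no adjusted p, and limma-voom 9 in BSHlow (*Mylk* 0.94, adjusted p = 0.0655). The interaction of time and BSH for *Acta2* was 0.26 with limma-voom and -1.09 to 0.051 with libraries left out. Leaving out 1 library also turned the sign of differences that were not called: the interaction of tissue and BSH for *Mylk* (-0.51 to 0.32), BSHhigh against BSHlow in tumors for *Acta2* (-0.10 to 0.31), *Actg2* (-0.12 to 0.80), *Des* (-0.41 to 1.12) and *Synpo2* (-0.065 to 0.55), in non-tumor tissues for *Cnn1* (-0.061 to 1.0) and *Mylk* (-0.60 to 0.11), and after 2 weeks for *Lmod1* (-0.069 to 1.28). Over all genes, the count called between BSHhigh and BSHlow tumors was 73 with edgeR, 534 with DESeq2, 543 with the likelihood-ratio test, 41 with limma-voom, 320 without a filter, 578 in 1 fit of all libraries and 0 to 240 with a library left out; for the interaction of tissue and BSH these were 161, 387, 445, 0, 195, 263 and 86 to 335. Between BSH groups and between 2 and 12 weeks the mice differ by design, so a shared replicate number there cannot mean 1 mouse. Whether it means 1 mouse in BSHlow tumor and non-tumor tissues is not known. Same-numbered samples correlated at -0.17 to 0.26 over the comparisons with a block, and at -0.08 to 0.16 between BSHlow tumor and non-tumor tissues. So few libraries cannot settle whether BSHlow tumor and non-tumor tissues were paired. With a replicate block 9 of 10 genes were called in BSHlow tumors against non-tumor tissues (*Mylk* -1.81, adjusted p = 0.0689 from edgeR). At 12 against 2 weeks 9 were called in BSHlow (*Mylk* 0.95, adjusted p = 0.0884 from edgeR) and 9 in BSHhigh. Between BSH groups 0 were called in non-tumor tissues and after 2 weeks. No paired analysis was possible because the columns of the BSHhigh tumors carry no numbers, for the comparisons that use them. The cause of these changes was not tested. Groups of 3 or 4 and, for *Lmod1*, *Cnn1* and *Des* after 2 weeks, counts as low as 1 to 5 in a library limit the precision.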
